A study of Thunnus thynnus with 30 samples.

Results

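FBXO32, TRIM63, klhl38, ABRA, CEBPD and OTUD1 are a set of genes tied to muscle wasting and muscle stress. They were read here as the 6 of 7295 rows of a count table that carry these names, and all 6 passed the filter on low counts. They were chosen by their measured fold changes between diets in these same libraries, so their levels and fold changes are descriptions. No p-value is given for them.

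RNA of whole, wild-type Atlantic bluefin tuna larvae (Thunnus thynnus) was sequenced in a study of docosahexaenoic acid (DHA, an omega-3 fatty acid of fish oil) in prey and its role in how larvae develop and grow. Larvae ate rotifers (Brachionus rotundiformis) with 2 mg (low), 3.6 mg (medium) or 10.9 mg (high) of DHA per g dry weight. Sampling took place 5, 10 and 15 days after hatching (days post hatch, dph), from 3 tanks per diet. Each of the 9 groups of age and diet has 3 libraries, except 5 dph high DHA, which has 2 (replicates 2 and 3). All groups ate enriched rotifers, so no group without added DHA or without food is compared. The labels do not say how many larvae went into a library.

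Skeletal muscle loses protein mainly through the ubiquitin-proteasome system and autophagy. In mammals, fasting, glucocorticoids and low insulin or IGF signalling activate FOXO transcription factors, which switch on the muscle ubiquitin ligases FBXO32 (atrogin-1) and TRIM63 (MuRF1). In fish, too, FBXO32 is known to respond to feeding, and its level in muscle is often read as a marker of fasting.

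Each gene has 1 row, with no second row that differs in capitals or by a final a or b. In the RefSeq gene list of the bluefin tuna assembly fThuThy2.1, fbxo32 and cebpd occur under the same symbol. The list holds trim63b, klhl38a and both abraa and abrab, but no otud1. The sources used here do not give the assembly behind the count table, or whether reads of duplicated copies were summed in 1 row. Library totals ran from 12805866 to 19169404 counts. Levels below are in CPM, counts scaled to library size after a correction for library composition (TMM). They compare 1 gene between groups, not genes with each other, since transcript length was not taken into account.

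By 15 dph all 6 genes were far lower than at 5 dph in every diet. The differences from low DHA were widest at 10 dph. At 5 dph the means of ABRA and OTUD1 ran low above medium above high, the reverse of 10 dph. At 15 dph CEBPD had its lowest mean in high DHA. At 10 dph low DHA larvae had the lowest mean of all 6 genes. Their means of FBXO32, ABRA, CEBPD and OTUD1 were already within 1.34-fold to 1.37-fold of those at 15 dph. Medium DHA larvae had the highest means of FBXO32 and klhl38, and high DHA larvae had the highest means of ABRA, CEBPD, OTUD1 and TRIM63. The medium and high libraries overlapped in FBXO32, klhl38, CEBPD and TRIM63. The larvae are whole animals, so fewer muscle cells and less RNA per cell cannot be told apart.

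**Figure D1:**
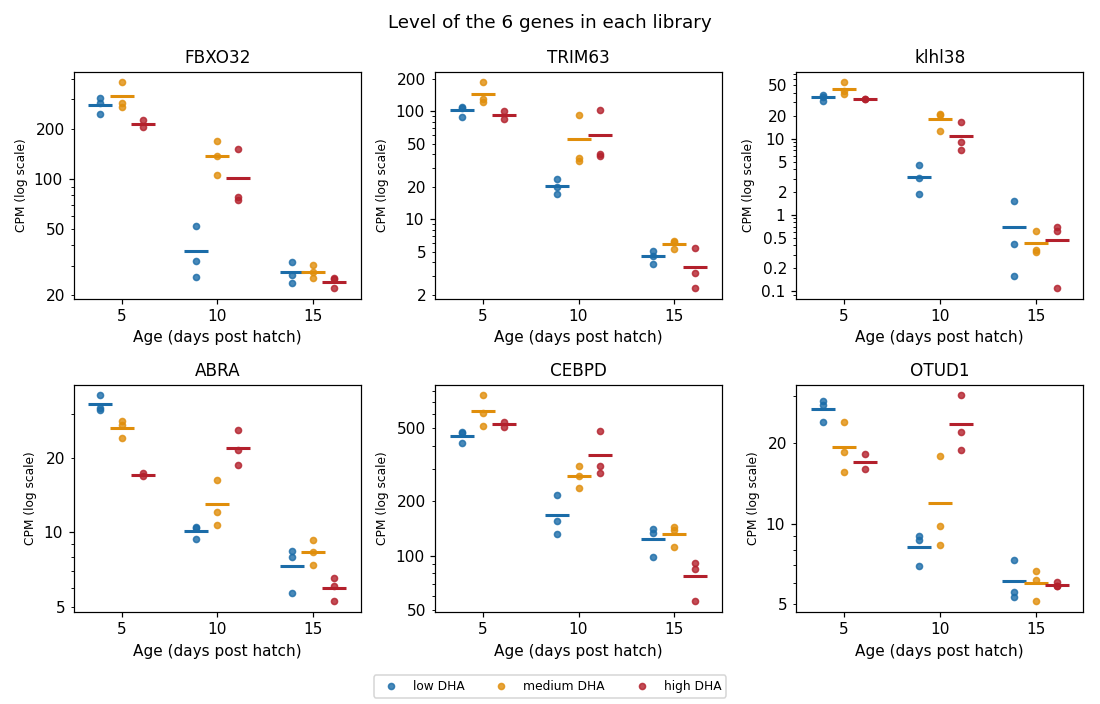
CPM (log scale) of each gene against age in dph. Points are libraries, bars are group means, and colours are the diets (3 libraries per group, 2 for 5 dph high DHA). At 10 dph every low DHA point lies below every high DHA point for all 6 genes.

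FBXO32 is the substrate-binding F-box subunit of an SCF ubiquitin ligase. At 5 dph the libraries read 245, 307 and 284 CPM for low, 270, 381 and 287 CPM for medium, and 226 and 204 CPM for high DHA. At 10 dph they read 52.3, 25.7 and 32.4 CPM for low, 170, 138 and 105 CPM for medium, and 75.2, 152 and 78.5 CPM for high DHA. At 15 dph they read 31.9, 23.8 and 26.7 CPM for low, 27.5, 25.3 and 30.6 CPM for medium, and 25, 22.1 and 25.6 CPM for high DHA. At 10 dph the low libraries lay below all others, while medium and high overlapped through the second high library. From the top, the group means ran from 5 dph medium, low and high to 10 dph medium, high and low, and then to the 3 groups of 15 dph. The 15 dph low and medium libraries overlapped those of 10 dph low, while the 15 dph high libraries lay just below them, with 25.6 CPM at most against 25.7 CPM at least. Between 10 dph diets, FBXO32 was 3.73-fold higher in medium than in low DHA (log2 1.9 ± 0.25, SE) and 2.76-fold higher in high than in low (log2 1.46 ± 0.24).

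TRIM63 is a RING-finger ubiquitin ligase of the sarcomere that targets thick filament proteins in mammals. At 5 dph it read 110, 107 and 88.9 CPM for low, 131, 186 and 122 CPM for medium, and 84.7 and 101 CPM for high DHA. At 10 dph it read 23.5, 19.8 and 17 CPM for low, 93, 34.7 and 36.8 CPM for medium, and 38.5, 102 and 39.8 CPM for high DHA. At 15 dph it read 4.59, 3.86 and 5.08 CPM for low, 6.24, 6.09 and 5.27 CPM for medium, and 2.29, 5.45 and 3.14 CPM for high DHA. At 10 dph 1 medium library (replicate 1) and 1 high library (replicate 2) stood far above the other 2 of their groups. The low libraries still lay below all others. The log2 difference from low was 1.58 ± 0.36 (SE) for high and 1.45 ± 0.36 for medium DHA. Without high replicate 2 the first value was 0.96 and no longer passed the test described below. With only the 10 dph libraries in the fit it was 1.54 and did not pass either. Without medium replicate 1 the second was 0.83. Unlike FBXO32, TRIM63 in 10 dph low DHA was still well above all 15 dph libraries, by 4.46-fold for the low diet.

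klhl38 encodes a kelch-like protein, a family whose members often serve as adaptors of CUL3 ubiquitin ligases, and in mammals it is known from skeletal muscle. At 5 dph it read 31.1, 37.3 and 35.3 CPM for low, 42.3, 54.7 and 37.8 CPM for medium, and 32.8 and 32.9 CPM for high DHA. At 10 dph it read 4.53, 1.91 and 3.01 CPM for low, 20.9, 20.2 and 12.5 CPM for medium, and 9.12, 16.5 and 7.1 CPM for high DHA. At 15 dph all 9 libraries lay between 0.11 and 1.51 CPM, on 2 to 28 counts each. At 10 dph the low libraries lay below all others, and medium and high overlapped. klhl38 was 5.58-fold higher in medium (log2 2.48 ± 0.36, SE) and 3.42-fold higher in high DHA (log2 1.78 ± 0.36) than in low, the widest differences from low among the 6 genes at both diets. At 15 dph the counts were too few to order the diets.

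ABRA (STARS) is an actin-binding protein of striated muscle that, in mammals, promotes transcription by serum response factor (SRF). At 5 dph it read 31, 35.6 and 31.7 CPM for low, 24, 27.1 and 28.1 CPM for medium, and 16.8 and 17.4 CPM for high DHA. At 10 dph it read 9.44, 10.4 and 10.5 CPM for low, 16.2, 12.1 and 10.7 CPM for medium, and 25.8, 21.4 and 18.7 CPM for high DHA. The order of the diets at 5 dph, low above medium above high without overlap, was the reverse of that at 10 dph, again without overlap. Medium and low lay close at 10 dph, with 10.7 CPM at least against 10.5 CPM at most (log2 0.36 ± 0.16, SE, not called). That difference was 0.17 without medium replicate 1, and 0.47 and called without medium replicate 3. At 15 dph the ranges were 5.69 to 8.4 CPM for low, 7.38 to 9.3 CPM for medium and 5.28 to 6.55 CPM for high DHA. There the medium libraries lay above the high ones, and low overlapped both. The log2 difference of high from low was -0.94 ± 0.17 (SE) at 5 dph, 1.12 ± 0.15 at 10 dph and -0.3 ± 0.17 at 15 dph. The 5 dph value rests on 2 high libraries, and at -0.92 and -0.96 it no longer passed the test when either was left out. Leaving out low replicate 2 (-0.87) or low replicate 3 (-0.96) also ended that call, as did the length score described below as a covariate (-0.9).

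OTUD1 is a deubiquitinase, an enzyme that removes ubiquitin chains. At 5 dph it read 28.8, 27.9 and 24.1 CPM for low, 15.6, 24 and 18.5 CPM for medium, and 16 and 18.2 CPM for high DHA. At 10 dph it read 6.96, 8.69 and 8.96 CPM for low, 17.9, 9.78 and 8.33 CPM for medium, and 22, 30.3 and 18.9 CPM for high DHA. Low DHA was thus the highest diet at 5 dph and high DHA the highest at 10 dph, in both cases with no overlap with either other diet. Medium and low overlapped at 10 dph. At 15 dph all 9 libraries lay between 5.11 and 7.34 CPM and the diets overlapped. The log2 difference of high from low was -0.66 ± 0.24 (SE) at 5 dph, 1.53 ± 0.22 at 10 dph and -0.04 ± 0.24 at 15 dph. At 10 dph the difference of medium from low, 0.55 ± 0.23 and not called, was 0.14 without medium replicate 1. It was called without medium replicate 2 (0.67) or medium replicate 3 (0.74), or with library totals alone (0.66).

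CEBPD is a transcription factor of the acute-phase and glucocorticoid response. In mammals it is known to promote muscle wasting, but it is expressed in many tissues besides muscle. At 5 dph it read 414, 469 and 476 CPM for low, 607, 760 and 513 CPM for medium, and 510 and 542 CPM for high DHA. At 10 dph it read 132, 155 and 215 CPM for low, 312, 273 and 236 CPM for medium, and 284, 482 and 312 CPM for high DHA. At 15 dph it read 140, 98.8 and 133 CPM for low, 111, 138 and 143 CPM for medium, and 84.3, 91.2 and 56 CPM for high DHA. High DHA thus lay above low at 5 and 10 dph and below low at 15 dph, each time without overlap. The log2 difference of high from low was 0.22 ± 0.23 (SE), 1.1 ± 0.21 and -0.68 ± 0.21 at 5, 10 and 15 dph. The 15 dph value was -0.5 without high replicate 3 and no longer passed the test. That call was also lost without high replicate 1 (-0.75), high replicate 2 (-0.82), low replicate 1 (-0.59) or low replicate 3 (-0.63). Library totals alone (-0.59), only 15 dph libraries (-0.69) or the length score described below as a covariate (-0.62) also ended that call. It was lost as well without 10 libraries outside the 2 groups, namely all 3 of 5 dph low, both of 5 dph high, 5 dph medium replicate 1, replicate 2 of 10 dph low and of 10 dph medium, and 15 dph medium replicates 2 and 3. The difference of high from medium at 15 dph was -0.76 ± 0.21. Its call was lost without medium replicate 2 (-0.72), medium replicate 3 (-0.69) or high replicate 3 (-0.57), and with the length score (-0.65).

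**Figure D2:**
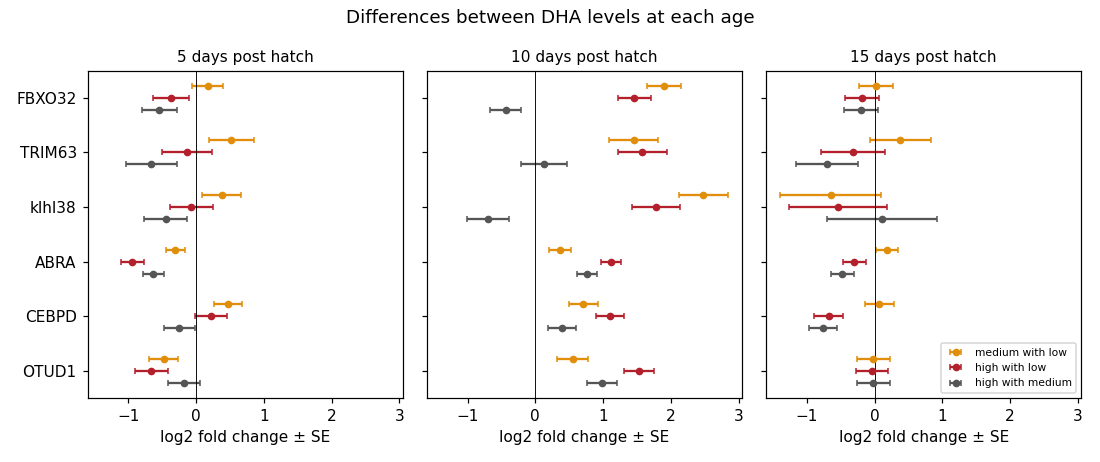
Log2 fold change (horizontal axis) with its SE for each gene, by age and pair of diets. Values of high with low DHA run from 1.1 to 1.78 at 10 dph, from -0.94 to 0.22 at 5 dph and from -0.68 to -0.04 at 15 dph.

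Calls were made by edgeR's quasi-likelihood test over all 7292 tested rows, with a threshold of 0.05 after Benjamini-Hochberg adjustment. Since this contrast helped to choose the genes, the counts are given only for reference. For high with low DHA at 10 dph 6 of 6 genes were called higher, where 19.4% of all rows were called higher and 23.8% in either direction. All 6 genes had libraries that did not overlap, as did 34.3% of all rows. For medium with low DHA at 10 dph 4 of 6 were called higher (24.3% of all rows higher, 34.9% either way), the exceptions being ABRA and OTUD1. In 5 of 6 genes these libraries did not overlap, against 44% of all rows. CEBPD lost its call for medium with low when low replicate 1 (0.56) or low replicate 2 (0.6) was left out. For high with medium DHA at 10 dph 1 gene, ABRA, was called higher (0.0549% of all rows higher, 0.137% either way). That count became 0 without any 1 of the 3 high libraries or without medium replicate 2 or 3. It became 2, with OTUD1, without medium replicate 1. It was also 0 without any 1 of 9 libraries of the other ages (all 3 of 5 dph low, 5 dph medium replicate 1, both of 5 dph high, 15 dph medium replicate 1, and 15 dph high replicates 1 and 3). It was 2 without 5 dph medium replicate 2 or 15 dph low replicate 1.

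The median log2 difference over the 6 genes at 10 dph was 1.5 for high with low, 1.08 for medium with low and 0.26 for high with medium DHA. Over all tested rows the same medians were 0.01, -0.03 and 0. At 5 dph 1 of 6 genes (ABRA, lower) was called for high with low DHA, where 0.0274% of all rows were called lower and 0.0823% either way. There 4 of 6 genes had libraries that did not overlap (54.3% of all rows), FBXO32, ABRA and OTUD1 lower and CEBPD higher in high DHA. None of the 6 was called for medium with low, where 27.2% of all rows were, and 5 of 6 did not overlap (45.7% of all rows). The 27.2% rests on few libraries. It was 0% without 5 dph medium replicate 2 or with the length score described below as a covariate, and 12.9% to 16.9% without any 1 of the 3 low libraries. The count of the 6 genes became 1 without 5 dph medium replicate 3 (CEBPD, log2 0.59) or without 10 dph medium replicate 1. It became 2 with library totals alone, with ABRA (log2 -0.54) and OTUD1 (-0.72) called lower. With only 5 dph libraries the same 2 were called lower (-0.36 and -0.53). For high with medium at 5 dph edgeR called 0% of all rows, 1417 rows and 1 of the 6 genes had an unadjusted p below 0.05, and DESeq2 called 43 rows. Without 5 dph medium replicate 3 ABRA was called lower there (log2 -0.58). At 15 dph CEBPD alone was called lower in high than in low DHA (4.47% of all rows lower, 2.99% higher, 7.46% either way). It alone was also called lower in high than in medium DHA (9.08% of all rows lower, 7.84% higher, 16.9% either way). Without 15 dph medium replicate 3 ABRA (log2 -0.56) was called there and CEBPD was not. The count was 2 without any 1 of 8 libraries (5 dph medium replicate 3, 10 dph medium replicates 1 and 3, 10 dph high replicates 1 and 3, and all 3 of 15 dph low). None was called for medium with low (0.0274% of all rows higher, 0.0411% lower, 0.0686% either way). The diet comparisons at 1 age share libraries with each other.

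All 6 genes were called lower at 10 than at 5 dph in low DHA (59.2% of all rows called, 28.9% lower) and in medium DHA (34.1% called, 19.1% lower). OTUD1 in medium DHA (log2 -0.68, groups overlapping) lost its call without 5 dph medium replicate 2 (-0.5), 10 dph medium replicate 2 (-0.56) or 10 dph medium replicate 3 (-0.47). With library totals alone (-0.57), with the length score (-0.6) or without the libraries of lowest TMM factor (-0.49) it was lost as well. In high DHA 2 were called lower, FBXO32 and klhl38 (16.4% called, 7.68% lower). Without 5 dph high replicate 2 that count was 1, with FBXO32 lost (log2 -1). Without 10 dph high replicate 2 it was 4, with TRIM63 (log2 -1.24) and CEBPD (log2 -0.82) gained. From 10 to 15 dph all 6 were called lower in medium (32.8% called, 15.6% lower) and in high DHA (38.9% called, 20.2% lower). In low DHA 3 were called lower over that step, TRIM63, klhl38 and ABRA (42.8% called, 16.2% lower). Adjusted for the length score, all 3 of these calls were lost (log2 -2.19, -2.37 and -0.57). The low DHA call of ABRA (log2 -0.46) was lost without 15 dph low replicate 2 (-0.3). Library totals alone (-0.25), only 10 and 15 dph libraries (-0.46) or leaving out the libraries of lowest TMM factor (-0.46) also ended it. The low DHA call of FBXO32 (-0.42, not called) was gained without 10 dph low replicate 2 (-0.68). That of CEBPD (-0.43, not called) was gained without 10 dph low replicate 1 (-0.58). ABRA and OTUD1 in high DHA ran against the rest between 5 and 10 dph. Their 10 dph means lay above the 5 dph means, which rest on 2 libraries (log2 0.36 ± 0.16 and 0.47 ± 0.24, SE, neither called).

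The same values can be read as how far each diet had gone by 10 dph along its own change from 5 to 15 dph, on the log2 scale. This share restates the group means and was not computed for other rows, so it is no separate result. For FBXO32 that share was 87.4% for the low, 33.9% for the medium and 34.3% for the high diet, out of a 10.1-fold, 11.3-fold and 8.88-fold fall. For TRIM63 it was 52.1%, 30.5% and 13.3% of a 22.7-fold, 24.9-fold and 25.5-fold fall. For klhl38 it was 61.3%, 19.8% and 26%, with falls of 49.8-fold, 105-fold and 69.4-fold that rest on few counts at 15 dph. The low diet thus had the largest share for each of these 3 ubiquitin ligase and adaptor genes. For CEBPD the shares were 76.8%, 52.8% and 19.9%. For ABRA they were 78.8%, 61.6% and -23.8%, and for OTUD1 79.8%, 40.6% and -30.9%, the negative sign marking a level above that of 5 dph. TRIM63, CEBPD, ABRA and OTUD1 were thus ordered low, medium, high by this share, while FBXO32 and klhl38 had a slightly larger share in high than in medium DHA.

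**Figure D3:**
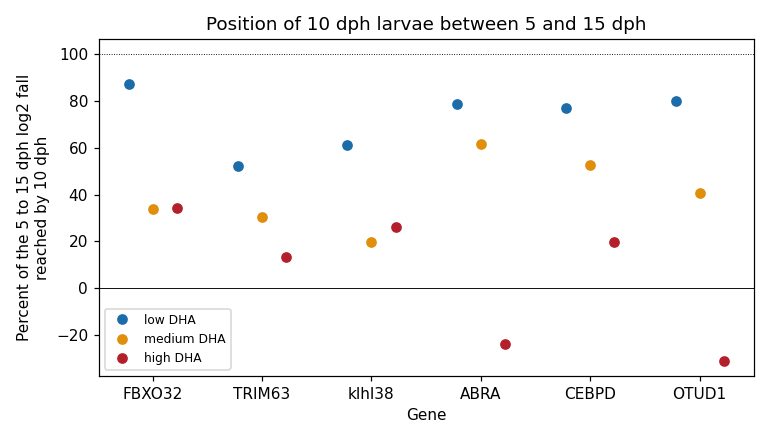
Percent of the log2 fall from 5 to 15 dph reached by 10 dph (vertical axis) for each gene and diet, from group means. The low diet has the largest share for all 6 genes, from 52.1% to 87.4%, and ABRA and OTUD1 are negative in high DHA. The share restates the group means and was not computed for other rows.

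Within the 9 libraries of 10 dph the closest likeness was that of FBXO32 with klhl38 (Pearson r of log2 CPM 0.99), followed by ABRA with OTUD1 (0.95). By Pearson r the other 2 genes formed no such pair. TRIM63 was most like FBXO32 (0.87), and CEBPD most like OTUD1 (0.87). By Spearman rank correlation, however, TRIM63 and CEBPD were most like each other (0.92). The lowest Pearson r among the 6 genes was 0.46, for klhl38 with ABRA. These values are descriptions over libraries of 3 diets (n = 9). Over all 26 libraries, which share the age change, the rows most like FBXO32 were ZFAND5 (r = 0.975), PNPLA8 (0.974) and SESN1 (0.972). For TRIM63 they were FBXO48 (0.978), Oser1 (0.973) and TCP11L2 (0.972). For klhl38 they were TCP11L2 (0.976), PDK2 (0.976) and GADD45B (0.973). For CEBPD they were gbp (0.981), GADD45B (0.976) and slc25a43 (0.966). ABRA was most like OTUD1 (0.948), then MTCL1 (0.94) and Ppp1r27 (0.933). OTUD1 was most like ABRA, then ALPK2 (0.945) and MTCL1 (0.941).

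The level of sarcomere genes was read beside the 6 genes at 10 dph, as a share of all RNA counted. What it says of the amount of muscle was not tested. The list of 38 rows, called sarcomere rows here, holds contractile protein genes such as those of myosin and troponin. It also holds other muscle genes, such as RYR1 and CASQ2 of the calcium store. The summed level of these rows was 64604.3 to 74148.1 CPM in low, 45876.1 to 61746 CPM in medium and 60160.4 to 72228.1 CPM in high DHA. It was thus highest on average in the diet in which the 6 genes were lowest, with low and high DHA overlapping. Of the 38 sarcomere rows 4 were called higher and 11 lower in medium than in low DHA, and 4 higher and 2 lower in high than in low. Of all rows, 24.3% were called higher and 10.6% lower in medium, and 19.4% and 4.39% in high. NEB, called higher in both, read 21.1 ± 17.1 CPM (SD, n = 3) in low DHA. It read 86.4 ± 20.8 CPM in medium and 84.5 ± 30.9 CPM in high DHA. TPM1, called lower in both, read 12.1 ± 2.65 CPM in low, 6.82 ± 1.83 CPM in medium and 8.2 ± 1.16 CPM in high DHA. Expressed per 1000 CPM of the sarcomere sum, FBXO32 at 10 dph was 0.531 ± 0.245 (SD, n = 3) for the low, 2.64 ± 0.312 for the medium and 1.58 ± 0.812 for the high diet. On this scale the log2 ratio of medium to low was 2.4 for FBXO32, 1.76 for TRIM63, 3.01 for klhl38, 0.8 for ABRA, 1.19 for CEBPD and 0.94 for OTUD1. The ratio of high to low ran from 1.2 (CEBPD) to 1.89 (klhl38). The low diet had the highest mean sarcomere sum as well as the lowest gene means, so this scale could only widen the gaps. It is no separate check. No tissue was dissected, so how much of each gene's RNA comes from muscle was not tested.

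**Figure D4:**
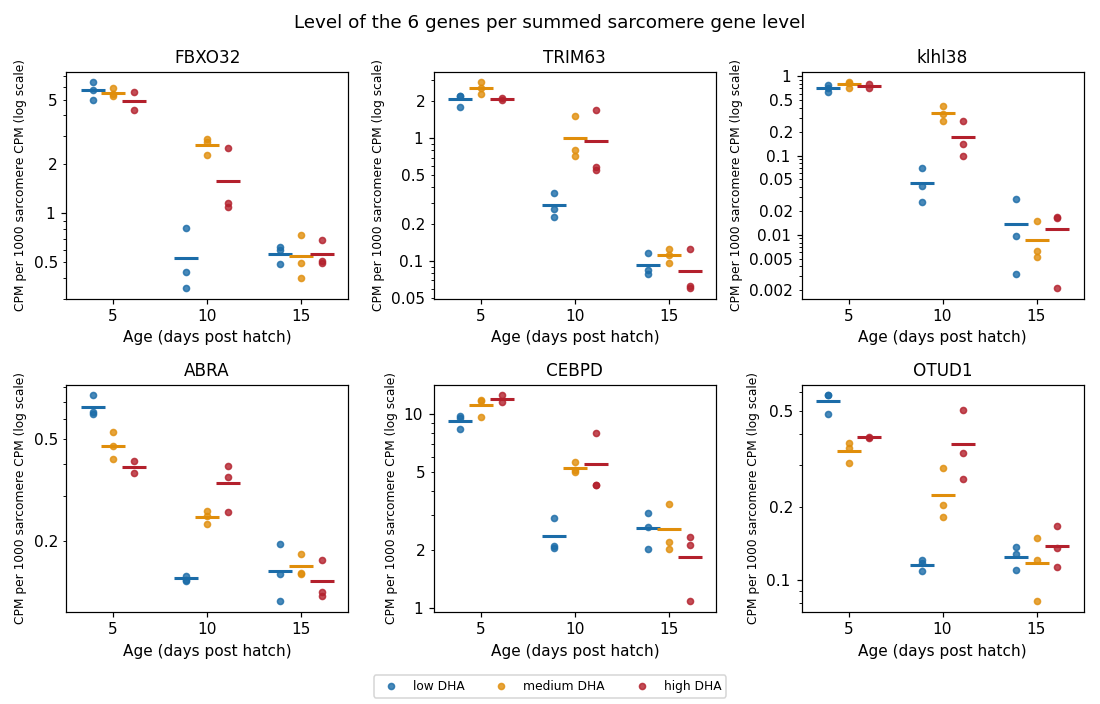
CPM of each gene per 1000 CPM of summed sarcomere genes (log scale) against age in dph. Points are libraries, bars are group means, and colours are diets. At 10 dph low DHA has the lowest mean of all 6 genes on this scale, for FBXO32 0.531 against 2.64 in medium DHA. Low DHA also has the highest mean sarcomere sum, so dividing by it can only widen these gaps.

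Other measures moved with the diets at 10 dph. The balance of very long to short transcripts (mean log2 CPM of 22 very long genes minus that of 29 short respiratory chain genes, which can shift with RNA quality) was -1.93, -3.11 and -2.54 for the low diet, -1.51, -1.76 and -1.43 for medium and -1.68, -1.7 and -2.09 for high. With this score as a covariate the log2 difference of high from low was 1.23 for FBXO32, 1.56 for TRIM63, 1.68 for klhl38, 1.05 for ABRA, 1.29 for CEBPD and 1.62 for OTUD1. There 4 of the 6 passed the test, TRIM63 and klhl38 no longer did, and 1.96% of all rows were called. For medium with low 3 of the 6 passed, with TRIM63 (1.42) lost, and 13.6% of all rows were called. Without 10 dph low replicate 2, the library with the lowest score, all 6 were still called for high with low, where 5.87% of all rows were. The share of all rows also fell without low replicate 3 (13.6%), high replicate 1 (12.5%) or high replicate 2 (8.48%).

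Of 11 neuron marker rows 9 were higher in medium and 6 in high than in low DHA at 10 dph, and none was lower. Of all rows, 24.3% were called higher and 10.6% lower in medium, and 19.4% and 4.39% in high. Their sums were 838.1 to 1191.9 CPM in low, 1443.8 to 1517.2 CPM in medium and 1209 to 1432.7 CPM in high DHA. Of 7 immune cell marker rows 5 were higher in medium and 4 in high, and none was lower. Their sums were 305.5 to 341.7 CPM in low, 686.4 to 841.2 CPM in medium and 385.1 to 716.1 CPM in high DHA. The part of these cell types in the levels of the 6 genes was not tested.

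Genes that act around the 6 in muscle protein breakdown were counted in lists, without the 6 genes themselves. The lists were drawn up with earlier results of these data known, and the genes named were mostly picked by small p-values in these same comparisons. Their counts and p-values are therefore descriptions and no separate support. The shares of all rows to set beside each list are those given above for the neuron markers. Of 17 glucocorticoid-responsive genes 12 rose and none fell in high against low DHA at 10 dph, and 9 rose and none fell in medium against low. KLF9, a transcription factor induced by glucocorticoids, rose from 15.8 ± 3.79 CPM (SD, n = 3) in low to 46.5 ± 15.6 CPM in high DHA (log2 1.55 ± 0.26, SE, edgeR quasi-likelihood test with Benjamini-Hochberg adjusted p = 0.0013). FKBP5, a co-chaperone of the glucocorticoid receptor, rose from 63.7 ± 16.4 to 165 ± 19.2 CPM in medium DHA (log2 1.38 ± 0.24, edgeR adjusted p = 0.00023). FKBP5 also rose in high DHA (log2 1.29 ± 0.24, edgeR adjusted p = 0.0019), a call lost with the length score (0.063). The median log2 difference of the list was 0.58 for high and 0.46 for medium with low, beside 0.01 and -0.03 over all rows.

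Of 26 insulin, IGF and FOXO signalling genes 13 rose and none fell in high against low DHA at 10 dph, and 13 rose and 1 (igfbp2a, an IGF binding protein) fell in medium against low. The igfbp2a call was lost without low replicate 1 (edgeR adjusted p = 0.062), medium replicate 1 (0.055) or medium replicate 2 (0.093), and with the length score (0.23). Irs2, an adaptor of the insulin receptor and a FOXO target, rose from 55.7 ± 13.2 CPM (SD, n = 3) to 118 ± 26.2 CPM in high DHA (log2 1.08 ± 0.18, SE, edgeR adjusted p = 0.0013). Irs2 also rose in medium DHA (log2 1.06 ± 0.18, edgeR adjusted p = 0.00017), a call lost with the length score (0.052). The FOXO factor foxo1a rose from 21.8 ± 4.17 to 39.8 ± 4.13 CPM in medium DHA (log2 0.87 ± 0.15, edgeR adjusted p = 0.00021). Of 20 autophagy and lysosome genes 11 rose and 1 fell in high, and 12 rose and 1 fell in medium against low DHA. Atg2b, a lipid transfer protein of autophagosome growth, rose by log2 0.86 ± 0.15 in high DHA (edgeR adjusted p = 0.0015). MAP1LC3C, an autophagosome membrane protein, was the one that fell in high DHA, by 0.89 ± 0.26 on the log2 scale (edgeR adjusted p = 0.016). The MAP1LC3C call was lost without low replicate 2 (adjusted p = 0.066), low replicate 3 (0.057), high replicate 1 (0.073) or high replicate 2 (0.057), and with the length score as a covariate (0.29). That of Atg2b was lost with the length score (0.052).

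Of 25 other muscle ubiquitin ligases and adaptors 5 rose and 1 fell in high, and 7 rose and 1 fell in medium against low DHA at 10 dph, shares near those of all rows. The 1 that fell was ASB15 in high and Fbxo40 in medium DHA, both under 5 CPM and picked out after their values were seen. TRIM32, a ligase of thin filament proteins, rose by log2 0.69 ± 0.12 (SE) in high DHA (edgeR adjusted p = 0.0013). FBXO30 (MUSA1) rose by log2 0.8 ± 0.12 in medium DHA (edgeR adjusted p = 9.8e-05). Of 27 SRF, actin and stretch genes, the pathway of ABRA, 6 rose and none fell in high, and 4 rose and 3 fell in medium against low DHA, again near or below the shares of all rows (19.4% higher and 4.39% lower in high, 24.3% higher and 10.6% lower in medium). ANKRD1, a stretch-responsive ankyrin repeat protein, rose from 31.5 ± 1.12 CPM (SD, n = 3) to 56.9 ± 12.6 CPM in high DHA (log2 0.85 ± 0.19, edgeR adjusted p = 0.0043). Of 15 myogenic and myostatin pathway genes 5 rose in high, and 6 rose and 1 (CAPN3, a muscle calpain) fell in medium against low DHA. The CAPN3 call was lost without low replicate 2 or 3 or any 1 of the medium libraries (edgeR adjusted p from 0.057 to 0.09), and with the length score (0.24). Of 11 family members of the 6 genes 1 rose in high DHA, FBXO25, the paralog of FBXO32 (log2 1.33 ± 0.32, edgeR adjusted p = 0.0063). Without low replicate 2 its edgeR adjusted p was 0.057, and with the length score 0.11. It also rose in medium DHA (log2 1.4 ± 0.32, edgeR adjusted p = 0.0015), where Fbxo40, which stands in both lists, fell. The FBXO25 call in medium DHA was lost with the length score (log2 1.25, edgeR adjusted p = 0.075).

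The high with low counts of these lists at 10 dph rest on few libraries. Counts in either direction for the glucocorticoid list were 12 with all libraries and 5 without low replicate 2 or without high replicate 2. For the insulin list 13 became 6 and 7 without the same libraries. The autophagy list went from 12 to 5 without low replicate 2, low replicate 3 or high replicate 2, and to 6 without high replicate 1. The ligase list went from 6 to 3 without any 1 of those 4 libraries. The SRF list went from 6 to 2 without low replicate 2 or high replicate 2 and to 3 without low replicate 3. The myogenic list went from 5 to 2 without low replicate 2, low replicate 3 or high replicate 2 and to 3 without high replicate 1. The family list went from 1 to 0 without low replicate 2 and to 2 without high replicate 1. For medium with low the SRF count of 7 became 11 without 5 dph medium replicate 2. With the length score as a covariate the high with low counts were 2 (glucocorticoid), 4 (insulin), 0 (autophagy), 2 (ligases), 1 (SRF), 0 (myogenic) and 0 (family). For medium with low they were 4, 6, 13, 7, 0, 1 and 1 in the same order.

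**Figure D5:**
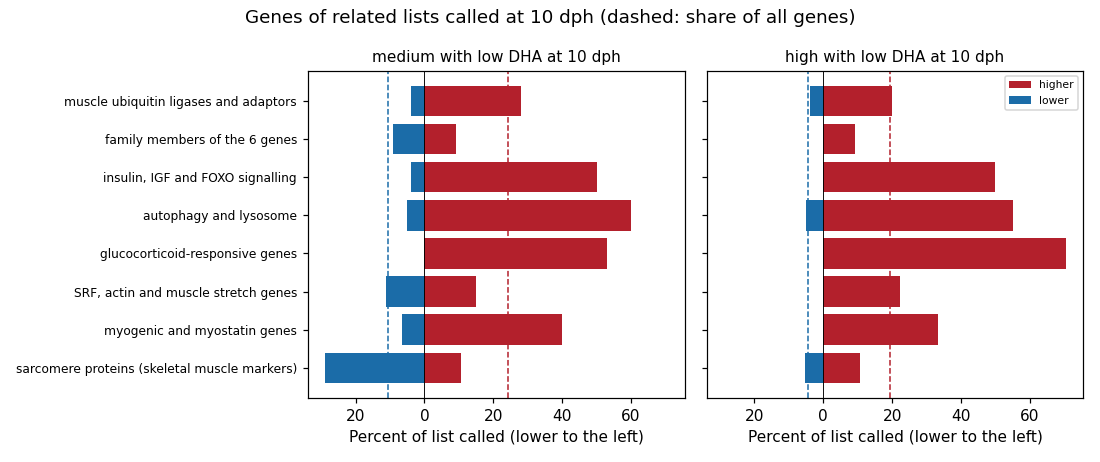
Percent of each list called higher (to the right) or lower (to the left) at 10 dph by edgeR. Dashed lines are the shares of all rows, 24.3% higher and 10.6% lower for medium with low, and 19.4% higher and 4.39% lower for high with low DHA.

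At 15 dph TRIM55 (MuRF2), a paralog of TRIM63 that stands in the ligase and family lists, fell from 13 ± 2.61 CPM (SD, n = 3) in low to 8.82 ± 0.843 CPM in high DHA (log2 -0.55 ± 0.13, SE, edgeR adjusted p = 0.01). Without high replicate 2 its edgeR adjusted p was 0.082. Foxo4 rose from 20.5 ± 4.08 to 33.3 ± 4.76 CPM (log2 0.7 ± 0.15, edgeR adjusted p = 0.0065). Each was the only gene called in its lists, 1 of 25 ligases, 1 of 11 family members and 1 of 26 insulin genes. Of all rows, 7.46% were called in either direction, 4.47% lower and 2.99% higher. Marker rows of several tissues were also called in this comparison. Of 18 liver rows 6 were lower and none higher, and of 17 intestine rows 6 were lower and 1 higher. Of 38 sarcomere rows 5 were lower and none higher. Of 7 immune cell rows 1 was lower, and none of 11 neuron or 8 red cell rows was called. The part of these tissues in the 15 dph levels of CEBPD and TRIM55 was not tested.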

How the data were processed

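Whole-larva RNA was sequenced (TruSeq RNA kit, per the labels). The authors deposited raw read counts per gene name. The submitters' processing notes name DESeq2 with no version number. Aligner, counting program, assembly and annotation: not given in the sources used here. The 4 internal control samples were not analysed here. Sample groups come from the labels.

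In R 4.3.3 with edgeR 4.0.16, the 26 libraries were filtered with filterByExpr (7292 of 7295 rows tested), scaled by TMM and fitted with 1 mean per group. The quasi-likelihood F-test was robust and two-sided, and p-values were adjusted by Benjamini-Hochberg across every tested row with a threshold of 0.05. The common biological coefficient of variation was 11.9%. SE was computed from the F statistic, and log2 CPM for likeness used a prior count of 2. The labels describe replicate tanks, and p-values measure only the spread between the sampled libraries. Ages of the same diet may share tanks but were tested as independent. The script was tested on simulated data. Alternatives used DESeq2 1.42.0, other scalings, no filter, only the libraries of the ages compared, replicate blocks, a length score and leaving out libraries.

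The 6 genes and the gene lists were chosen with earlier results of these data known. Named list genes are, per list and comparison, up to 2 in each direction with the smallest p among called genes of at least 5 CPM, of which the text gives some. For likeness the 3 rows with the highest r were taken per gene.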

Additional observations from a re-analysis of the deposited data

Results flagged for a closer look

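Some diet differences had opposite signs at different ages, with the libraries of the compared groups not overlapping at either age. The difference between ages was not tested. For high with low DHA, libraries did not overlap in 54.3% of all rows at 5 dph, 34.3% at 10 dph and 24.2% at 15 dph. The log2 difference of FBXO32 was -0.37 ± 0.26 (SE, not called) at 5 dph and 1.46 ± 0.24 at 10 dph. That of OTUD1 was -0.66 ± 0.24 (not called) and 1.53 ± 0.22. That of ABRA was -0.94 ± 0.17 and 1.12 ± 0.15 at the same ages. For CEBPD it was 0.22 ± 0.23 (not called) at 5 dph, 1.1 ± 0.21 at 10 dph and -0.68 ± 0.21 at 15 dph.

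ABRA also changed sign in the other pairs of diets. For medium with low DHA its log2 difference was -0.31 ± 0.14 (SE) at 5 dph and 0.36 ± 0.16 at 10 dph, neither called. There 45.7% and 44% of all rows did not overlap. For high with medium DHA its difference was -0.63 ± 0.16 at 5 dph, 0.76 ± 0.15 at 10 dph and -0.48 ± 0.17 at 15 dph. Only the 10 dph value was called, and 38.1%, 22.6% and 39.9% of all rows did not overlap.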

How the results depend on the processing

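Over the 9 diet comparisons 14 of 54 calls of the 6 genes were made, where 0% to 34.9% of all rows were called per comparison. That count was 9 with the length score as a covariate and 11 to 17 when 1 library was left out, and the cause was not tested. Over the 6 age comparisons it was 29 of 36 and 28 to 31 when 1 library was left out. There 16.4% to 59.2% of all rows were called per comparison. Genes of the lists were called 169 times in the diet comparisons, 70 times with the length score, and 140 to 209 times when 1 library was left out. The share of all rows called also fell with the length score, as given above for high and medium with low DHA at 10 dph. For high with low DHA at 10 dph 6 of the genes were called (5 to 6 with 1 library out), and for medium with low 4 (3 to 6). Of all rows, 23.8% and 34.9% were called in these comparisons, and 0.137% for high with medium. For high with medium DHA at 10 dph the count of 1 became 0 with library totals alone or only 10 dph libraries, and 2 with DESeq2, the length score, or (chosen after seeing the data) without the 2 libraries of lowest TMM factor. It was 0 to 2 with 1 library out.

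No called fold change of the 6 genes changed sign under any alternative run. Scaling by library totals alone moved the median of all genes by -0.23 for medium with low DHA and by 0.19 for high with medium DHA at 5 dph. With the replicate number as a block the diet calls of the 6 genes stayed at 14, the age calls at 29, and list genes were called 180 times. Replicate numbers are those of the sample titles. For 1 library of 5 dph high DHA the treatment label gives another number. With that number in the block the diet calls were also 14 and the age calls 29. Same-numbered libraries of 1 age deviated together (r above 0.1) in 12 of 25 pairs, and differently numbered ones in 12 of 50. Within 1 diet across ages, same-numbered libraries did so in 11 of 25 pairs and differently numbered ones in 8 of 50. Mean r was 0.05 and -0.02 within ages, and 0.07 and -0.03 within diets. The main fit did not pair samples by number, and whether the numbers mark shared tanks was not tested. At 15 dph klhl38 had 2 to 28 counts per library, which limits its ordering there.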
